A study of Mus musculus with 9 samples.

Results

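The SIBLING genes (small integrin-binding ligand N-linked glycoproteins) *Dmp1*, *Spp1*, *Ibsp*, *Mepe* and *Dspp* were followed by RNA sequencing in osteoblast-lineage MC3T3-E1 cells given organic or inorganic phosphate. They were chosen by name as the 5 genes of this family among 55416 genes in the tables. Earlier results of these data were known when they and the gene lists below were chosen. Of the 5, 4 were among the 13679 genes with enough counts to be tested. MC3T3-E1 is a murine pre-osteoblastic line from calvaria, and all groups were wild-type cells of this line differentiated in osteogenic medium with 10 mM β-glycerophosphate (BGP), 50 μg/mL ascorbic acid and 0.1 μM dexamethasone. From day 27, cells received 4 mM BGP, an organic phosphate, or 4 mM NaHPO4, an inorganic sodium phosphate mix, for 16 h, or no added phosphate (Control), and all were harvested at day 28. The paper states that the base medium itself held inorganic sodium phosphate in all conditions, Control included. The sample labels keep the osteogenic medium until the treatment, whereas the methods withdraw its BGP about 1 week earlier. There were 3 libraries per group, and nothing in the labels says that they came from separate cultures, so p-values measure the spread between these libraries, which may be technical.

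SIBLING proteins are acidic, phosphorylated glycoproteins that bone and dentin cells secrete into the matrix. They bind calcium and hydroxyapatite, and most bind integrins through an RGD motif. Members differ in what they do to mineral: bone sialoprotein, encoded by *Ibsp*, can start crystal formation, while osteopontin, encoded by *Spp1*, and acidic peptides cleaved from MEPE restrain crystal growth. *Dmp1* encodes dentin matrix protein 1, an osteocyte product whose loss raises FGF23 and causes phosphate wasting, and *Dspp* encodes the main non-collagenous protein of dentin.

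Poly(A) RNA was read as pairs of 50 bases, and total counts lay between 21390839 and 28234404 per library. All 6 listed osteoblast markers (*Col1a1*, *Col1a2*, *Alpl*, *Bglap*, *Runx2* and *Sp7*) were tested, with summed levels of 97131 to 104672 CPM (counts scaled to a common library size by TMM) in Control, 94344 to 100363 CPM with BGP and 84720 to 91384 CPM with NaHPO4. Of the osteocyte list, 6 of 7 genes were tested, and only *Dkk1* was too low. Markers of other cell types were mixed. Of the chondrocyte list, the cartilage collagen gene *Col2a1* stood at 242 CPM in Control and *Sox9* was also tested, while the proteoglycan gene *Acan* had 3 reads over all 9 libraries. Of the osteoclast and macrophage list, the protease gene *Ctsk* stood at 292 CPM in Control, while the leukocyte gene *Ptprc* had 1 read. The ameloblast genes *Enam*, *Ambn* and *Amelx* had 0. In bulk RNA, fewer cells of a type and less RNA per cell cannot be told apart.

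The 5 genes lie in a row on the plus strand of mouse chromosome 5, over 270.658 kb of GRCm39 (104318578 to 104589235), in the order *Dspp*, *Dmp1*, *Ibsp*, *Mepe*, *Spp1*. *Dmp1* (ENSMUSG00000029307) spans 104345340 to 104361974 with 6 exons in its canonical transcript, *Ibsp* (ENSMUSG00000029306) 104447037 to 104459338 with 7, *Mepe* (ENSMUSG00000053863) 104473195 to 104486477 with 3, *Spp1* (ENSMUSG00000029304) 104582165 to 104589235 with 7 and *Dspp* (ENSMUSG00000053268) 104318578 to 104327993 with 5. RefSeq promoters were at hand for *Dmp1*, *Spp1*, *Ibsp* and *Mepe*. Because 2 of these genes moved with phosphate and 2 did not pass the test, their promoters were read for what they share. Each held an inverted CCAAT box (ATTGG), a letter sequence found on either strand in 33.8% of 32851 mouse promoters of 250 bases, and in each the next TATA-like letters began after exactly 21 further bases. The 45-base stretches around the pair are shown, with the inverted CCAAT box and the TATA-like hexamer in capitals.
Dmp1, chr5:104350419-104350463, plus strand: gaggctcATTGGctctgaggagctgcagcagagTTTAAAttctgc
Spp1, chr5:104582924-104582968, plus strand: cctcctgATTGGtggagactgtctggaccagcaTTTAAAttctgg
Ibsp, chr5:104447092-104447136, plus strand: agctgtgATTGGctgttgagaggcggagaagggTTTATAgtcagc
Mepe, chr5:104473167-104473211, plus strand: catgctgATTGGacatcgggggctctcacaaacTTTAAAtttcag

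*Dmp1*, *Spp1* and *Mepe* carried TTTAAA, letters found in 12.1% of the 32851 promoters over the 250 bases before the start. The match in *Mepe* lay outside that window, so this share belongs to *Dmp1* and *Spp1* only. *Ibsp* carried TTTATA, which is the TATA box TATAAA read on the other strand. The ATTGG began 57, 46, 54 and 21 bases before the RefSeq start of *Dmp1*, *Spp1*, *Ibsp* and *Mepe*, and in *Mepe* the hexamer fell 5 bases past the start base. The pairing of letters and distance was chosen after these sequences were seen. Over the 300 bases that RefSeq gives per promoter (250 before and 50 after the start), ATTGG followed after 21 bases by either hexamer occurred in 17 of 32851 promoters (0.0517%) of 13 genes. Besides the SIBLING genes these were the osteocyte gene *Sost*, *Mbd3*, *Vsnl1*, 2 olfactory receptor genes and 4 predicted genes. Other letters were less evenly shared. The RUNX letters TGTGGT, found on either strand in 14.0% of promoters, were 159 to 164 bases before the start in *Dmp1*, 123 to 128 in *Spp1* and at 2 places in *Mepe* (75 to 80 and 113 to 118), with no match in *Ibsp*. The AP-1 letters TGANTCA (6.75% of promoters), the EGR letters GCGTGGG (4.30%) and the E-box CACGTG (6.02%) had no match in any of the 4, which says only that these letters are not in these windows. The ETS letters CCGGAAG (6.91%) matched once, in *Spp1*, and the homeodomain letters TAATTA (4.84%) once, in *Mepe*. TATAAA (12.4%) had a further match far from the start in *Spp1* and *Mepe*. For *Spp1* and *Ibsp*, GENCODE also holds transcripts that begin 812 and 116 bases before the RefSeq start, so that the printed letters lie inside their first exons, and for *Dmp1* and *Spp1* RefSeq lists a second start that does not carry the pair.

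**Figure D1:**
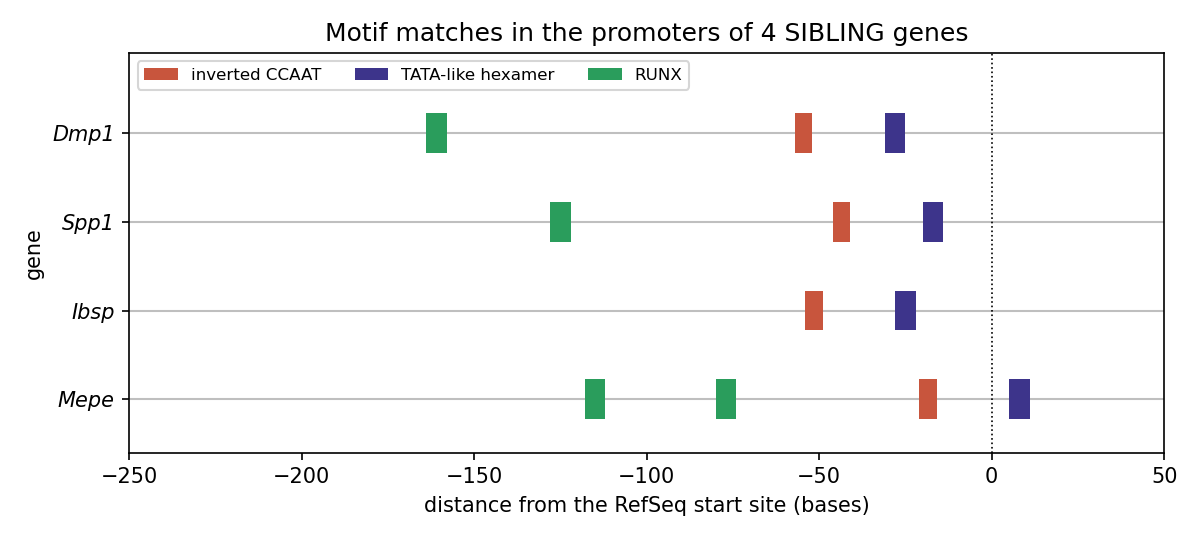
Positions of motif matches relative to the RefSeq start site (dotted line, in bases) in the promoters of *Dmp1*, *Spp1*, *Ibsp* and *Mepe*; bars are as wide as the matched letters. The inverted CCAAT box and the TATA-like hexamer stand 21 bases apart in all 4 genes, and RUNX letters are missing from *Ibsp*.

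In Control cells the family was dominated by *Ibsp*. Levels between genes are compared in CPM per kb of exon. *Ibsp* stood at 6001 ± 167 CPM per kb (SD, n = 3) in Control, place 3 among 13631 tested genes found in the annotation. *Spp1* followed at 611 ± 44.5 CPM per kb (place 24), *Dmp1* at 23.7 ± 3.23 (place 1201) and *Mepe* at 2.05 ± 0.233 (place 8912). With BGP, *Spp1* stood at 1702 ± 123 CPM per kb (place 11) and *Dmp1* at 172 ± 13 (place 110), and with NaHPO4 at 2387 ± 203 (place 11) and 109 ± 9.45 (place 184). The order *Ibsp*, *Spp1*, *Dmp1*, *Mepe*, *Dspp* was the same in each group, and no neighbours in it overlapped between their libraries. The distance between the first and second place shrank: per kb, *Ibsp* was 9.83-fold above *Spp1* in Control, 3.52-fold with BGP and 2.47-fold with NaHPO4. With the longest transcript in place of all exons, the *Spp1* level in Control was 705 CPM per kb.

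**Figure D2:**
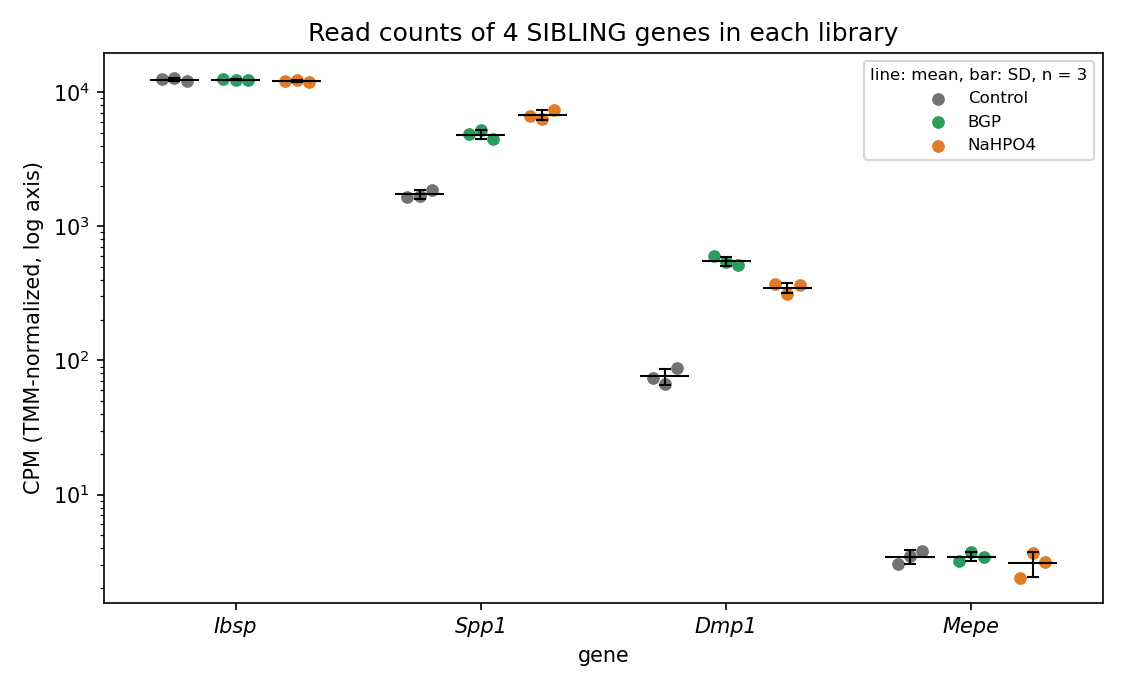
TMM-normalized CPM (log axis) of 4 SIBLING genes; each point is 1 of 3 libraries per group, the line is the mean and the bar the SD. *Dmp1* and *Spp1* libraries form separate levels for Control, BGP and NaHPO4, in opposite order for the treatments, while *Ibsp* stays between 11995 and 12708 CPM and the groups of *Mepe* overlap.

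With BGP, *Dmp1* and *Spp1*, 2 of the 4 tested SIBLING genes, were called higher than in Control, where 0.556% of all tested genes were called (0.482% higher and 0.0731% lower). A call required an adjusted p (false discovery rate, FDR) below 0.05 and an absolute log2 fold change (log2FC) above 0.5. With NaHPO4, 2 of the 4 were again called higher, *Dmp1* and *Spp1*, where 0.716% of all tested genes were called (0.446% higher and 0.27% lower). Both comparisons used the same Control libraries. The family was chosen with earlier results of these data known, so the counts beside these shares are a description and not a test. Between BGP and NaHPO4, *Dmp1* was the 1 of 4 called, where 0.585% of all tested genes were called (0.38% higher with BGP and 0.205% lower), and *Spp1* passed the FDR in the other direction without reaching the minimum. The FDR alone was passed by 1.86% of all tested genes as higher and 0.665% as lower with BGP, by 3.43% and 3.95% with NaHPO4, and by 3.33% and 2.05% between BGP and NaHPO4. The libraries of *Dmp1* and *Spp1* did not overlap in any comparison, as was so for 18.5% of all tested genes with BGP, 23.2% with NaHPO4 and 21.2% between BGP and NaHPO4.

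*Dmp1* had 73.7, 67.0 and 87.4 CPM in the Control libraries, 597, 542 and 515 CPM with BGP, and 369, 314 and 363 CPM with NaHPO4. All BGP libraries were above all NaHPO4 libraries, which were above all Control libraries. *Dmp1* rose 7.24-fold with BGP (log2FC 2.86, SE 0.0622, edgeR quasi-likelihood adjusted p = 1.2e-28), place 3 by size of change and place 1 by p among all tested genes. With NaHPO4 it rose 4.57-fold (log2FC 2.19, SE 0.0618, adjusted p = 3.89e-25), place 5 by size. The BGP level was 1.58-fold above the NaHPO4 level, with a 95% interval of the log2FC from 0.55 to 0.77.

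*Spp1* had 1645, 1682 and 1881 CPM in Control, 4842, 5187 and 4489 CPM with BGP, and 6689, 6264 and 7404 CPM with NaHPO4. The 3 groups again did not overlap, but here the NaHPO4 libraries were the highest. *Spp1* rose 2.79-fold with BGP (95% interval of the log2FC 1.38 to 1.58) and 3.91-fold with NaHPO4 (1.87 to 2.06), where it held place 1 of all tested genes by p and place 7 by size. Between the treatments it was lower with BGP by a log2FC of -0.49 (95% interval -0.58 to -0.39, edgeR quasi-likelihood adjusted p = 2e-09), short of the minimum of 0.5. That call turned on small shifts: the log2FC was -0.52 when scaled by total counts, and -0.54 both without BGP replicate 2 and without NaHPO4 replicate 2.

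*Ibsp* had 12537, 12708 and 12043 CPM in Control, 12491, 12274 and 12430 CPM with BGP, and 12179, 12408 and 11995 CPM with NaHPO4. The groups overlapped throughout, and the coefficient of variation within a group was 0.899% to 2.78%. The difference from Control did not pass the test with BGP (log2FC 0.00, 95% interval -0.06 to 0.05, edgeR quasi-likelihood adjusted p = 0.972) or NaHPO4 (log2FC -0.03, interval -0.09 to 0.03, adjusted p = 0.664). Nor did the difference between treatments (log2FC 0.02, interval -0.03 to 0.08, adjusted p = 0.753). These intervals leave out changes as large as the minimum of 0.5 in either direction.

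*Mepe* was a low transcript, with 65, 80 and 97 reads in the Control libraries, 71, 83 and 79 with BGP, and 66, 105 and 80 with NaHPO4, or 2.40 to 3.82 CPM. The groups overlapped and no difference passed. Its log2FC was -0.01 with BGP (95% interval -0.38 to 0.36) and -0.17 with NaHPO4 (interval -0.54 to 0.20), so that at this depth NaHPO4 could have lowered it by more than the minimum without passing. *Dspp* did not pass the filter on low counts: it had 2 reads in BGP replicate 1, 1 read in NaHPO4 replicate 2 and 0 in the other 7 libraries. A count of 0 allows up to 3 reads, or 0.110 to 0.140 CPM in those libraries, for counting error only. The dentin member of the family was therefore at or under the detection limit in every group, as were the other ameloblast and odontoblast genes listed.

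**Figure D3:**
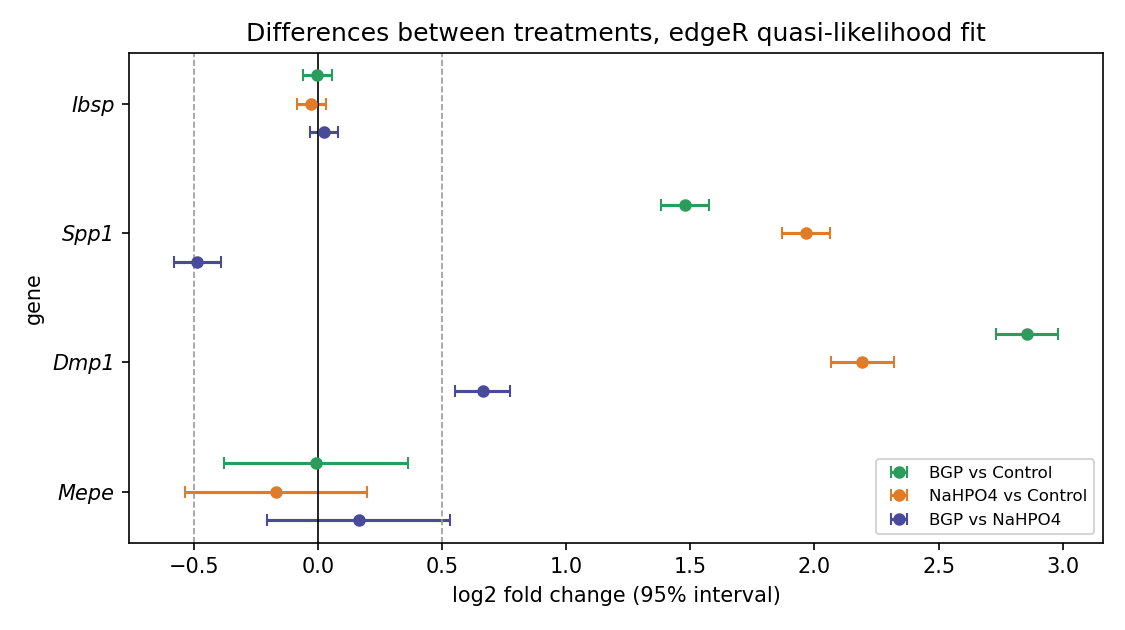
Log2 fold change (x axis) of each tested SIBLING gene in the 3 comparisons, with 95% intervals from edgeR; dashed lines mark the minimum of 0.5. *Dmp1* and *Spp1* lie far right of 0 in both comparisons with Control and on opposite sides of 0 between BGP and NaHPO4, and the intervals of *Ibsp* and *Mepe* contain 0.

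The 5 genes took 1.42 ± 0.0248% of all counts in Control, 1.77 ± 0.0378% with BGP and 1.96 ± 0.0478% with NaHPO4, and the 3 groups did not overlap. This share of total counts also moves with the other genes of a library. The proportions among the SIBLING transcripts within a library do not depend on how libraries are scaled. *Ibsp* supplied 87.2 ± 1.14% of the counts of the 5 genes in Control, 69.7 ± 1.56% with BGP and 63.1 ± 2.33% with NaHPO4. *Spp1* supplied 12.2 ± 1.06%, 27.2 ± 1.54% and 35.1 ± 2.25%, and *Dmp1* 0.535 ± 0.0814%, 3.10 ± 0.203% and 1.80 ± 0.136%. The share of *Ibsp* was thus lower in treated libraries while its own level did not pass the test.

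**Figure D4:**
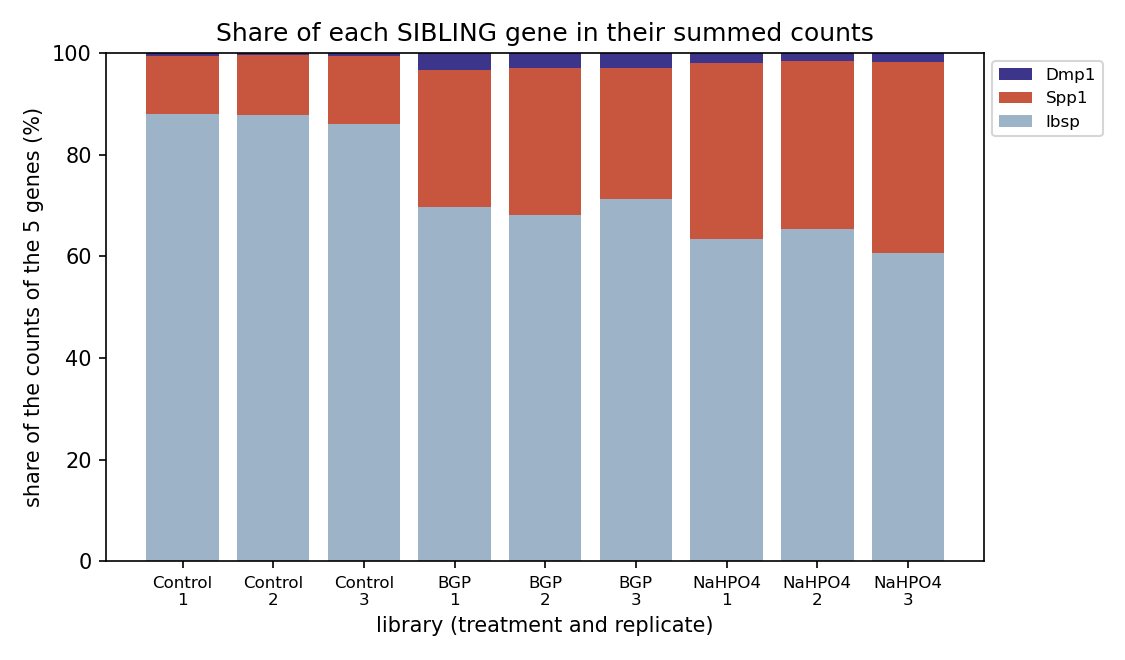
Share (%) of *Ibsp*, *Spp1* and *Dmp1* in the summed counts of the 5 SIBLING genes, 1 bar per library; *Mepe* and *Dspp* are too low to be seen. *Spp1* takes 11.5% to 13.4% in the Control libraries, 25.7% to 28.8% with BGP and 33.0% to 37.5% with NaHPO4, and *Dmp1* is widest with BGP.

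Between *Spp1* and *Dmp1*, the 2 treatments gave different mixtures. The Control libraries held 22.3, 25.1 and 21.5 *Spp1* counts for each *Dmp1* count, the BGP libraries 8.10, 9.56 and 8.71, and the NaHPO4 libraries 18.1, 20.0 and 20.4. The NaHPO4 libraries lay just under Control and the BGP libraries well under both. The log2 ratio of *Dmp1* to *Spp1* was higher than in Control by 1.39 with BGP and by 0.24 with NaHPO4, and by 1.15 with BGP compared with NaHPO4. For *Ibsp*, there were 7.19 ± 0.684 counts for each *Spp1* count in Control, 2.57 ± 0.201 with BGP and 1.81 ± 0.181 with NaHPO4, and 166 ± 26.1, 22.6 ± 1.61 and 35.2 ± 3.77 counts for each *Dmp1* count. None of the 9 comparisons of these ratios had overlapping groups. The 3 ratios are built from 3 genes, so each follows from the other 2, and the 9 comparisons are not separate results. In each, the two-sided exact permutation test gave p = 0.1 (adjusted p = 0.1 over the 9 exact tests), which is the smallest p that 3 libraries against 3 allow and cannot pass 0.05.

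Genes around the cluster were read in the same fit, where 0.482% of all tested genes were called higher with BGP. The share was 0.446% with NaHPO4, and 0.38% for BGP over NaHPO4. Of 24 other genes annotated within 500 kb of the cluster, 10 were tested, and 1 of them, *Gm42793*, was called higher in each comparison. The other 9, among them the polycystin gene *Pkd2* and *Sparcl1*, an extracellular matrix gene related to *Sparc*, had log2FC between -0.63 and 0.55 over the 3 comparisons and did not pass the FDR. *Ibsp* and *Mepe* themselves lie between *Dmp1* and *Spp1*.

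**Figure D5:**
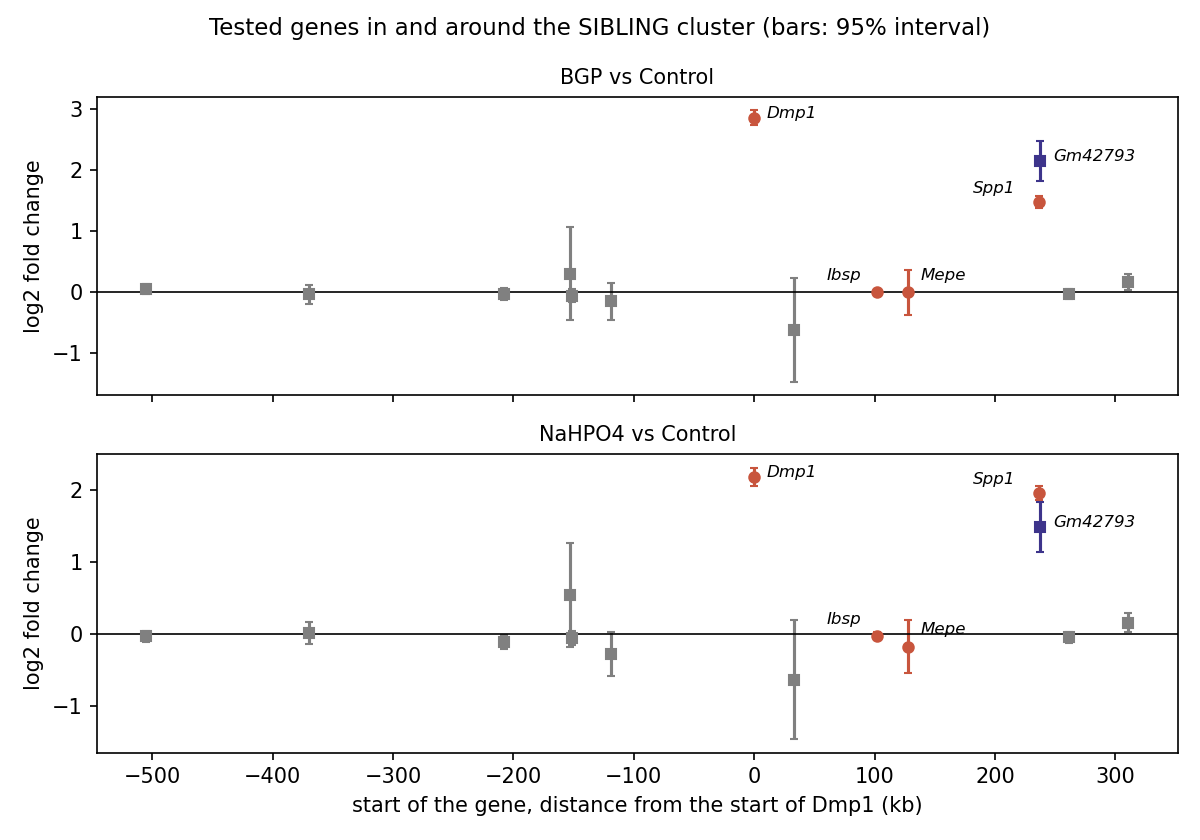
Log2 fold change against Control (y axis, 95% intervals) of the tested genes within 500 kb of the SIBLING cluster, by the distance of each gene's start from that of *Dmp1* (kb), for BGP and NaHPO4; circles are SIBLING genes and squares are neighbours. *Dmp1*, *Spp1* and *Gm42793* stand above 0, with *Ibsp* and *Mepe* near 0 between them.

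*Gm42793* (ENSMUSG00000105954) is a predicted gene model on the same strand inside *Spp1*, at 104582987 to 104584238. Of its 1252 bases, 362 lie in *Spp1* exons and 890 (71.1%) in *Spp1* introns, so reads of both genes cannot be fully told apart. It had 36, 36 and 66 reads in Control, 203, 188 and 203 with BGP, and 173, 143 and 137 with NaHPO4. In CPM it rose from 1.95 ± 0.565 to 8.78 ± 0.358 with BGP and 5.56 ± 0.663 with NaHPO4, and its level with BGP was 1.58-fold that with NaHPO4 (edgeR quasi-likelihood adjusted p = 0.00143). Its host *Spp1* had the opposite order: the libraries held 925 ± 181 *Spp1* counts for each *Gm42793* count in Control, 552 ± 53.9 with BGP and 1231 ± 161 with NaHPO4, a ratio looked at after the values were seen and given without a test.

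Genes whose protein products modify SIBLING proteins were read next. Of 18 listed processing genes, 12 were tested, and 2 were called higher with BGP and none lower, with a median log2FC of 0.03 beside -0.00 over all tested genes. Calls with BGP covered 0.482% of all tested genes as higher and 0.0731% as lower. *Fam20c*, the Golgi kinase that phosphorylates SIBLING proteins, rose from 80.2 ± 3.72 CPM in Control to 176 ± 10.4 CPM with BGP (log2FC 1.13) and 132 ± 12.1 CPM with NaHPO4 (log2FC 0.71), and the groups did not overlap. *Fam20a*, a pseudokinase that activates FAM20C, rose from 14.6 ± 2.79 CPM to 24.4 ± 1.70 CPM with BGP (log2FC 0.73), with 19.9 ± 1.07 CPM for NaHPO4 (log2FC 0.44, past the FDR but under the minimum). With NaHPO4, 1 processing gene was called higher, *Fam20c*, and 1 lower, *Tgm2*, a transglutaminase that cross-links osteopontin, which fell from 8.28 ± 1.04 to 5.54 ± 0.673 CPM (log2FC -0.59, edgeR quasi-likelihood adjusted p = 0.00164). Calls with NaHPO4 covered 0.446% of all tested genes as higher and 0.27% as lower. The FDR alone was passed by 3 higher and 5 lower processing genes with NaHPO4, and by 3 higher and none lower with BGP. Its shares over all tested genes were 3.43% higher and 3.95% lower with NaHPO4, and 1.86% and 0.665% with BGP. No processing gene was called between the treatments, where 5 higher and 1 lower passed the FDR alone, *Fam20c* among the higher (log2FC 0.42). There the FDR alone was passed by 3.33% of all tested genes as higher and 2.05% as lower. *Phex*, which encodes a peptidase that degrades SIBLING-derived peptides, differed by a log2FC of 0.26 with BGP (adjusted p = 0.0333 in the same edgeR fit) and 0.08 with NaHPO4 (adjusted p = 0.579).

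Of 13 listed receptors and binding partners, 12 were tested. With BGP 2 were called higher, with NaHPO4 1, and none was called lower in either comparison or in either direction between the treatments. Shares called higher over all tested genes were 0.482% with BGP and 0.446% with NaHPO4. *Itgb8*, an integrin β subunit that pairs with αv, rose from 5.27 ± 0.179 CPM to 9.99 ± 1.02 CPM with BGP (log2FC 0.92) and 9.21 ± 1.09 CPM with NaHPO4 (log2FC 0.81). *Itgb3*, whose product forms the αvβ3 receptor for osteopontin and bone sialoprotein, rose from 14.8 ± 1.51 to 21.1 ± 0.551 CPM with BGP (log2FC 0.51), just over the minimum, and stood at 16.9 ± 2.70 CPM with NaHPO4 (log2FC 0.18, edgeR quasi-likelihood adjusted p = 0.26). The direct comparison of *Itgb3* between treatments passed the FDR with a log2FC of 0.33, under the minimum. The median log2FC of the receptor list was 0.06 with BGP and 0.07 with NaHPO4.

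Of 11 transcription factors listed as regulators of SIBLING genes, all were tested. The FDR was passed by 1 with BGP and by 3 with NaHPO4, each under the minimum. Over all tested genes, it was passed by 1.86% as higher and 0.665% as lower with BGP, and by 3.43% and 3.95% with NaHPO4. Calls between the treatments covered 0.585% of all tested genes. Between the treatments 1 was called, *Vdr*, the vitamin D receptor, with 131 ± 11.9 CPM without added phosphate, 158 ± 11.5 CPM with BGP and 108 ± 0.492 CPM with NaHPO4. It passed the FDR in opposite directions, with a log2FC of 0.26 for BGP and -0.29 for NaHPO4, and the treatments differed by 0.55 (edgeR quasi-likelihood adjusted p = 2.24e-10). The osteoblast factor *Runx2* had 421 ± 4.57, 423 ± 8.09 and 395 ± 14.7 CPM, and did not pass in any comparison.

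Genes of mineral and phosphate handling formed the last list. Of 11 tested from 12 listed, 4 were called higher with BGP, 3 with NaHPO4 and 3 higher with BGP than with NaHPO4, none lower. The shares called higher over all tested genes were 0.482%, 0.446% and 0.38%. Genes of this list, like the members and the other lists, were chosen with earlier results of these data known. *Enpp1*, which makes pyrophosphate, a mineral inhibitor, rose by a log2FC of 2.63 with BGP and 1.94 with NaHPO4. *Ank*, a pyrophosphate and ATP exporter, rose by 1.63 and 1.11, and the sodium-phosphate cotransporter *Slc20a1* by 1.10 and 0.69. *Fgf23*, the phosphate-lowering hormone, was called with BGP (1.20 ± 0.367 to 8.39 ± 1.60 CPM) and not with NaHPO4 (1.54 ± 0.271 CPM). *Enpp1*, *Ank* and *Fgf23* were called higher with BGP than with NaHPO4, as *Dmp1* was and unlike *Spp1*. The list's median log2FC was 0.10 with BGP and -0.01 with NaHPO4. With NaHPO4, 4 of its genes passed the FDR as lower without reaching the minimum. Over all tested genes, 3.95% passed the FDR as lower with NaHPO4. Of the more distant relatives of the family, *Sparc* and *Sparcl1* were tested and not called, and the 5 enamel genes listed had 0 counts. *Sparc* stood at 19695 ± 510 CPM without added phosphate, 18830 ± 128 CPM with BGP and 17941 ± 411 CPM with NaHPO4.

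Cell type markers were read beside these changes. The 7 osteocyte markers, which include *Dmp1* and *Mepe*, summed to 138 to 159 CPM in Control, 601 to 687 CPM with BGP and 386 to 445 CPM with NaHPO4. Most of that difference was *Dmp1* itself, and apart from *Dmp1* and *Fgf23* the list had no marker called higher than Control. *Pdpn*, for instance, had 30.5, 30.1 and 30.4 CPM in Control, BGP and NaHPO4. The marker *Sost* was called lower with NaHPO4 (log2FC -1.68). *Phex* passed the FDR as higher with BGP without reaching the minimum (log2FC 0.26). With NaHPO4, 4 of the 6 osteoblast markers passed the FDR as lower without reaching the minimum, *Col1a1* with a log2FC of -0.22, and with BGP none of the 6 passed. Over all tested genes, 3.95% passed as lower with NaHPO4 and 0.665% with BGP. The summed level of the 4 chondrocyte markers was 248 to 306 CPM in Control, 339 to 446 CPM with BGP and 185 to 264 CPM with NaHPO4, mostly from *Col2a1*. This gene was called higher with BGP than in Control (log2FC 0.501, just over the minimum) and than with NaHPO4 (log2FC 0.95). With NaHPO4 it passed the FDR as lower than Control without reaching the minimum (log2FC -0.45). The 6 osteoclast and macrophage markers summed to 290 to 297, 276 to 287 and 250 to 263 CPM, almost wholly from *Ctsk*. The 4 adipocyte markers summed to 9.86 to 15.7 CPM over all libraries, the 3 muscle markers to 7.46 to 10.1 CPM with *Myog* at 0, and the 2 endothelial markers to at most 0.187 CPM. The part of these markers in the SIBLING changes was not tested.

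Over the 9 libraries, the log2 CPM of *Dmp1* and *Spp1* had a Pearson correlation of 0.892 and a Spearman correlation of 0.5, a description in which the 9 points come from 3 groups and share their scaling. The tested genes most like *Dmp1* were *Ank* (0.992), *Lbh* (0.987), *Gm42793* (0.987), *Etv4* (0.987) and *Nudt4* (0.987). Those most like *Spp1* were *Lclat1* (0.988), *Timp1* (0.987), *Kpna1* (0.983), *Prkg2* (0.979) and *Cyp51* (0.973). For *Ibsp*, whose values hardly varied, the nearest were *Cd302* (0.939), *Gm26559* (0.937), *Ndufs5* (0.923), *Frg2f1* (0.912) and *Tmem161a* (0.909). No gene was in more than 1 of these lists. Ranked by Spearman correlation in place of Pearson, 0 of 5 genes of the *Dmp1* and *Spp1* lists and 2 of 5 of the *Ibsp* list remained.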

How the data were processed

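The condition of each of the 9 libraries came from the sample labels. The authors deposited whole-number read counts per Ensembl gene, mapped to GRCm39 (Ensembl 104) by AIR. The aligner, counter and strand setting are not given in the sources used here. A second deposited table holds TMM-scaled signal (counts times 1.01 to 1.32 per library), used for alternatives only.

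Counts were filtered with filterByExpr (count minimum 10), scaled by TMM and tested in 1 fit with edgeR 4.0.16 (glmQLFTest), with Benjamini-Hochberg adjustment. Errors are SDs over 3 libraries, and intervals cover the spread of these libraries only. Replicates differed by more than sampling noise (chi-square per degree of freedom 2.61 to 4.84). Count ratios were tested by exact permutation. Lengths are unions of GENCODE exons. Promoters came from RefSeq (GRCm38.p6) and were matched once each in GRCm39. R 4.3.3, limma 3.58.1, DESeq2 1.42.0, Python 3.11.15 and scipy 1.17.1 were used, and the edgeR fit was tested on simulated data.

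Members and gene lists were chosen with earlier results of these data known. Named were the members, list genes called in any comparison, cluster neighbours, the most abundant gene of a list without a call, and the 5 genes most correlated with *Dmp1*, *Spp1* and *Ibsp* (log2 CPM, prior count 2). *Runx2*, *Phex*, *Pdpn*, *Sost*, *Mgp* and the other cell type markers were named with their values in view. Alternatives were a fit of the compared groups alone, the likelihood ratio test, DESeq2, limma on the TMM table, other scalings and filters, no minimum log2FC, a replicate block and each library left out.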

Additional observations from a re-analysis of the deposited data

How the results depend on the processing

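Across the alternatives, 221 of the log2FC of single SIBLING genes kept direction and side of the FDR and 7 turned direction, all for *Ibsp* and *Mepe*, which passed in no setting. *Ibsp* between BGP and NaHPO4 was -0.00323 with total counts. With each library left out, *Ibsp* ranged from -0.0258 to 0.0128 and *Mepe* from -0.0861 to 0.0763 for BGP against Control. *Dmp1* ranged from 2.77 to 2.97 with BGP and from 2.11 to 2.31 with NaHPO4, and *Spp1* from 1.43 to 1.54 and from 1.90 to 2.03. The number of SIBLING genes called between the treatments, 1, became 2 with no minimum log2FC, with limma at a pseudocount of 1 or 10, and with total counts, and ranged from 1 to 2 with each library left out, by *Spp1* crossing 0.5. Without a minimum log2FC, 22 list genes in place of 7 passed for NaHPO4 and 19 in place of 5 between the treatments. The *Spp1* level in Control moved from 611 to 705 CPM per kb with the longest transcript. The ratios kept direction in all 72 alternatives. Libraries that share a replicate number hardly deviated together (correlation -0.0092 to 0.0426). This cannot show whether same-numbered libraries were prepared together, which the labels do not say. With the replicate block, *Dmp1* had a log2FC of 2.86 and 2.19 and *Spp1* 1.48 and 1.97 against Control, and no call of a SIBLING gene changed. Depth limits *Mepe* and *Dspp*.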

Other observations

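*Sost*, which encodes the Wnt inhibitor sclerostin of osteocytes, was called lower with NaHPO4, and its difference with BGP did not pass. The Control libraries had 1.39 ± 0.0360 CPM (SD, n = 3), the BGP libraries 1.21 ± 0.599 CPM and the NaHPO4 libraries 0.427 ± 0.0792 CPM. The log2FC was -1.68 with NaHPO4 (edgeR quasi-likelihood adjusted p = 0.00272) and -0.21 with BGP (adjusted p = 0.852), on 97, 81 and 35 reads in the 3 groups. BGP libraries ranged from 0.516 to 1.57 CPM, a spread wider than in the other groups.

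*Mgp*, which encodes matrix Gla protein, a mineral inhibitor of soft tissue and cartilage, had nearly the same change with both phosphates, from 264 ± 9.42 CPM to 373 ± 5.99 CPM with BGP and 369 ± 30.9 CPM with NaHPO4, a log2FC of 0.50 and 0.48 that passed the FDR and not the minimum in either comparison with Control. The difference between the treatments did not pass (log2FC 0.02, edgeR quasi-likelihood adjusted p = 0.902).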
